A study of Mus musculus with 12 samples.

Results

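The circadian clock genes of the mouse heart are described here across transgenic and control animals. They are the 10 loci whose symbol in the deposited table is Arntl, Clock, Per1, Per2, Per3, Cry1, Nr1d1, Nr1d2, Dbp or Ciart, out of 25171 loci in all, and every one of them was found and had enough counts to be tested. The study compared hearts of mice that express the human NOTCH2NLC gene with an expanded tract of 98 GGC repeats, the repeat behind neuronal intranuclear inclusion disease, with control hearts. RNA was sequenced from 12 hearts, 3 in each of 4 groups, and the 4 groups were compared here gene by gene, also to see whether the hearts read alike for genes that follow the time of day.

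By the labelled crosses, the groups share the conditional allele, a loxP-stop-loxP-NOTCH2NLC-(GGC)98 cassette at Rosa26. EIIa-tg mice also carried EIIa-Cre, which acts in the early embryo and opens the cassette throughout the body, EIIa-ctl mice lacked the Cre, and both were taken at postnatal day 30. In the other model, mice carried Myh6-creERT2, a tamoxifen-inducible Cre under the α-myosin heavy chain promoter of cardiomyocytes. They were injected from postnatal day 60 with 3 doses of tamoxifen at 75 mg/kg (Myh6-tg) or with corn oil alone (Myh6-ctl), and hearts were taken at postnatal day 90. Age, Cre line and injection therefore differ together between the models, and tamoxifen itself cannot be told apart from expression of the repeat within the Myh6 model. Nothing in the sources used here gives the hour at which a heart was collected.

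The clock is a loop of transcription factors that runs in nearly every cell. BMAL1, encoded by Arntl, pairs with CLOCK and activates genes with E-boxes in their promoters, among them the Per, Cry, Nr1d, Dbp and Ciart genes, and the PER and CRY proteins then repress that pair. NR1D1 and NR1D2 repress Arntl through ROR elements, so that in the heart Arntl RNA is high at the time of day when Dbp and most Per RNA is low, and a single heart shows 1 moment of that cycle.

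Some promoters are printed because they carry the elements of this loop, an element bound by NR1D and ROR proteins in Arntl, E-boxes in Per1 and Ciart, and D-boxes, the sites of DBP and its relatives, in Per3. The windows run from 250 bases before to 50 bases after a RefSeq transcript start on GRCm38.p6, 5′ to 3′ on the strand of the gene, and the capitals mark the element found.
Arntl (chr7:113207261-113207560, plus strand): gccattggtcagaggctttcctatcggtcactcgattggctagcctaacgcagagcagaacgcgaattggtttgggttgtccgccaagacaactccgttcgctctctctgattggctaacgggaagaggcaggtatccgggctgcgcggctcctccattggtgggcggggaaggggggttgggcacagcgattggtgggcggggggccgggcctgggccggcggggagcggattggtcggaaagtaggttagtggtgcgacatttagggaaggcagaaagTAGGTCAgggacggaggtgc
Per1 (chr11:69098699-69098998, plus strand): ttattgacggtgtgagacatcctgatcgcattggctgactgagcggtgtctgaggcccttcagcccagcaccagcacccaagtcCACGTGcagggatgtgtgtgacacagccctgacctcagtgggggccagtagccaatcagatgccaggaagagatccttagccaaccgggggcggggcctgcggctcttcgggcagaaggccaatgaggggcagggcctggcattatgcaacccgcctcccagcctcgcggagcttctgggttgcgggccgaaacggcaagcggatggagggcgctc
Per3 (chr4:151044616-151044915, minus strand): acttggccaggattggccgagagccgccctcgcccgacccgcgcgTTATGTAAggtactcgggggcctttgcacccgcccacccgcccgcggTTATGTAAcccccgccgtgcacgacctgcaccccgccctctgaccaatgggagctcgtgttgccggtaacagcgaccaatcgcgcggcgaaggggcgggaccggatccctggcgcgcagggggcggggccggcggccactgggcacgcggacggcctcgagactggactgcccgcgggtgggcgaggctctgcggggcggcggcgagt
Ciart (chr3:95882179-95882478, minus strand): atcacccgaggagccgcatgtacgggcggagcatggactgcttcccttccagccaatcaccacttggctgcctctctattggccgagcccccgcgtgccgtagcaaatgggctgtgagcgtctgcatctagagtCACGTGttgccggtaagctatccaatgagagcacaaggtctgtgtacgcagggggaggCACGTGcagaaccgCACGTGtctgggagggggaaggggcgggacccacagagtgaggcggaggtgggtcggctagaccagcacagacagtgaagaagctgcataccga

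Among the 13 such windows that RefSeq lists for 9 of the clock genes, the E-box CACGTG stood in 3, those of Per1, Cry1 and Ciart, and 7.15% of all 32851 promoter windows of the same length hold it. Ciart had 3 copies, at -116, -58 and -44 from the start, Per1 had 1 at -166, and Cry1 had 1 at -60. The variant CACGTT was found in the windows of Cry1 and Nr1d1 (4.68% of all promoters). The ROR core TAGGTCA or TGGGTCA stood only in 1 window of Arntl, 31 bases after the start (6.45%). The D-box TTATGTAA was found in Per3, at -205 and -158 (0.938%), and the cyclic AMP element TGACGTCA in no clock gene window (1.79%). All were searched on both strands, and a match or its absence describes these letters in these windows only. No RefSeq window was listed for Per2.

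Before the values of single genes, 1 heart has to be named. Myh6-ctl replicate 1 lay more than 2-fold from both other Myh6-ctl hearts in 7 of the 10 clock genes, against 6.09% of the 15929 genes kept over all hearts (970 genes). Arntl was higher there, and Per1, Per2, Per3, Nr1d2, Dbp and Ciart were lower. In the other 11 hearts no clock gene passed the same mark, although Myh6-tg replicate 1 stood apart by more genes overall (2413 genes, 15.1%) and Myh6-ctl replicate 2 by about as many (986 genes, 6.19%). The standard deviation of log2 values within Myh6-ctl had a median of 1.37 over the clock genes and 0.33 over all genes, whereas in EIIa-ctl the medians were 0.17 and 0.18, in EIIa-tg 0.18 and 0.22 and in Myh6-tg 0.28 and 0.32. The fold change of Myh6-tg over Myh6-ctl is therefore given with and without that heart for each clock gene. Other values that use Myh6-ctl are given both ways for some genes only.

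**Figure D1:**
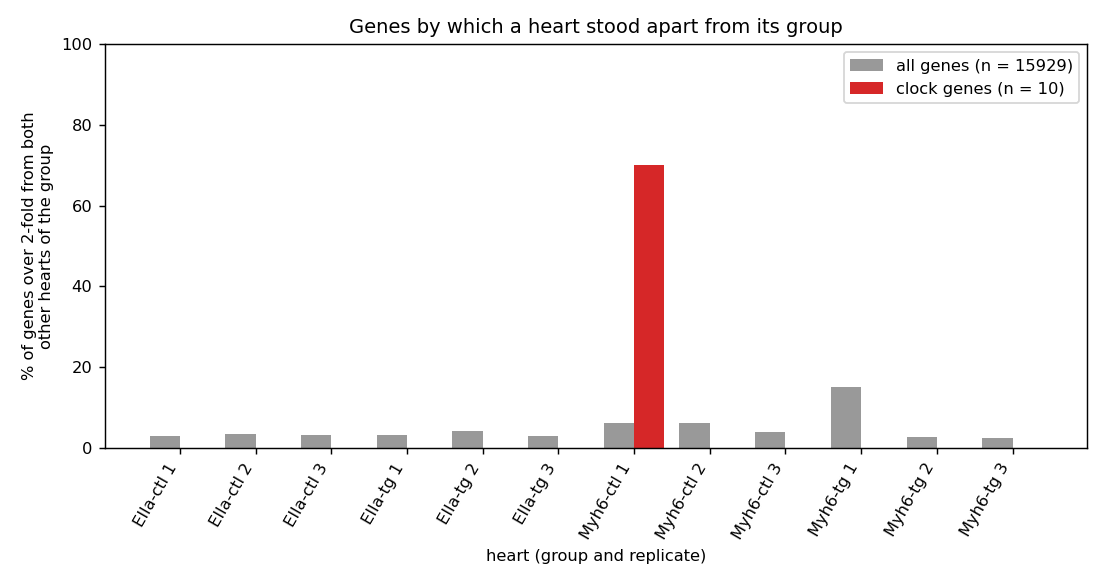
Bars show, for each heart on the x axis, the percentage of genes (y axis) that lay more than 2-fold above or below both other hearts of its group, in grey for 15929 genes and in red for the 10 clock genes. Myh6-ctl replicate 1 is the only heart with a red bar, at 7 of the 10 clock genes beside 6.09% of all genes.

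Totals ran from 38343106 to 50969834 counts per heart, and that heart had 50940490, close to the 50907555 of Myh6-ctl replicate 3. Counts of Y-linked genes were high in replicate 1 of every group and at most 2 elsewhere, so replicate 1 of all 4 groups shares this. With a term for it in the fit, the 2 clock genes called in Myh6-tg were Per1 and Nr1d1, as without it. The 1 call in EIIa-tg, Per1, was lost with that term (11.3% of all genes called). Nr1d1 was then called between the control groups (0.0867% of all genes) and for the difference between models (4.64%). Cardiomyocyte markers (6 of 6 detected) summed to between 5863 and 31057 normalized CPM, where CPM scales counts to a common library total and normalized means that this total was adjusted by TMM. Their sums were 20192 to 24545 in Myh6-ctl against 5863 to 18653 in Myh6-tg, and 24830 to 31057 in EIIa-ctl against 13369 to 22369 in EIIa-tg, while both lung markers were at 0 in every heart. The members of that list did not move together in Myh6-tg, where Myh6, Tnni3 and Pln fell, while Tnnt2 (mean 3961 normalized CPM in Myh6-ctl and 5393 in Myh6-tg), Actn2 (1299 and 1940) and Ryr2 (468 and 386) did not pass the test. In EIIa-tg 1 of the 6 passed, as lower. Means of Myh6, Tnni3, Ryr2, Pln and Actn2 (1390 in EIIa-ctl and 1312 in EIIa-tg) were lower there, and that of Tnnt2 was higher (4064 and 4343). Macrophage markers (4 of 4) summed to 132 to 197 in EIIa-ctl, 256 to 348 in EIIa-tg, 234 to 322 in Myh6-ctl and 298 to 584 in Myh6-tg, though Adgre1 among them had a mean of 34.0 in Myh6-ctl and 22.4 in Myh6-tg. Fibroblast markers (4 of 4) summed to 856 to 1018, 1330 to 2023, 1166 to 1308 and 1366 to 3050 in the same order, and erythroid markers (3 of 3) to 1079 to 1828, 151 to 926, 3693 to 5787 and 1335 to 2458. Mitochondrial genes took 31.8 to 38.3% of counts in Myh6-ctl and 15.5 to 18.6% in Myh6-tg, against 34.2 to 36.7% in EIIa-ctl and 28.5 to 32.3% in EIIa-tg. In bulk tissue, fewer cells of a type and less RNA per cell cannot be told apart, and the part of these shifts in the clock gene values was not tested. Esr1, the estrogen receptor gene whose human form is part of creERT2, read 1030 to 2330 normalized CPM in Myh6-ctl and 1.00 to 2.52 in Myh6-tg, although both carry creERT2 by label. The reason was not tested, and the groups are called here by their labels.

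Arntl encodes BMAL1, the activator of the loop (ENSMUSG00000055116, chr7:113207465-113314126 on GRCm38). It read 1.14, 2.08 and 1.09 normalized CPM in EIIa-ctl replicates 1, 2 and 3, 2.24, 3.32 and 5.41 in EIIa-tg, 29.0, 1.58 and 1.31 in Myh6-ctl and 15.3, 28.3 and 22.7 in Myh6-tg. All 3 EIIa-tg hearts lay above all EIIa-ctl hearts, all 3 Myh6-tg hearts lay above both, and Myh6-ctl was split, with replicate 1 at the level of Myh6-tg and the other 2 hearts at the level of EIIa-ctl. The log2 fold change of EIIa-tg over EIIa-ctl was 1.34 ± 0.40 (SE), and the edgeR adjusted p of 0.0529 missed the threshold of 0.05. With all hearts, Myh6-tg exceeded Myh6-ctl by 1.06 ± 1.05 on the log2 scale (adjusted p = 0.523), and without Myh6-ctl replicate 1 by 3.94 ± 0.37 (adjusted p = 0.0102).

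Clock encodes the partner of BMAL1 (ENSMUSG00000029238, chr5:76209868-76304792, minus strand). Its levels were 25.6, 24.5 and 25.8 normalized CPM in EIIa-ctl, 30.2, 25.8 and 33.1 in EIIa-tg, 46.2, 20.5 and 31.9 in Myh6-ctl and 43.9, 54.5 and 64.7 in Myh6-tg. EIIa-tg replicate 2 touched the EIIa-ctl range, and 1 Myh6-ctl heart, replicate 1, lay above the lowest Myh6-tg heart. Clock passed the edgeR test on the 6 hearts of a model in neither of them, with log2 fold changes of 0.23 ± 0.11 (SE, adjusted p = 0.194) in EIIa-tg and 0.73 ± 0.30 (adjusted p = 0.135) in Myh6-tg, or 1.06 ± 0.28 without Myh6-ctl replicate 1 (adjusted p = 0.0781). With all 12 hearts in one edgeR fit, Clock passed in Myh6-tg (0.73, adjusted p = 0.0399). The ROR core in the Arntl window printed above has no counterpart in the 3 Clock windows.

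Among the repressors, Per1 was the 1 clock gene that passed in both models. Per1 (ENSMUSG00000020893, chr11:69095217-69109960) encodes a PER protein and is also known as a gene that glucocorticoids and cyclic AMP induce. It stood at 72.4, 50.2 and 54.6 normalized CPM in EIIa-ctl, 93.5, 70.9 and 105 in EIIa-tg, 13.9, 48.0 and 69.6 in Myh6-ctl and 138, 190.2 and 209 in Myh6-tg. The Myh6-tg hearts lay above every other heart, and the EIIa groups overlapped by 1 heart each. In EIIa-tg its log2 fold change was 0.60 ± 0.17 (SE), a rise of 1.51-fold (adjusted p = 0.0497), and in Myh6-tg it was 2.03 ± 0.52, a rise of 4.08-fold (adjusted p = 0.0334). Without Myh6-ctl replicate 1 the Myh6-tg rise was 1.61 ± 0.29 (adjusted p = 0.0349). The call in EIIa-tg was lost when any 1 of 5 of the 6 hearts was left out (adjusted p up to 0.166). In Myh6-tg it was lost in 3 of the 6 such fits (adjusted p up to 0.0898).

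Per2 (ENSMUSG00000055866, chr1:91415982-91459324, minus strand) gave 25.2, 22.6 and 22.7 normalized CPM in EIIa-ctl, 25.5, 28.7 and 29.1 in EIIa-tg, 1.76, 50.2 and 66.8 in Myh6-ctl and 22.5, 25.8 and 26.0 in Myh6-tg. The 9 hearts of the other groups lay between 22.5 and 29.1, and the 3 Myh6-ctl hearts lay outside that range on both sides. Within Myh6-ctl the log2 values of Per2 had a standard deviation of 2.89, the largest of the clock genes. The fold change of Myh6-tg over Myh6-ctl was -0.68 ± 0.92 on the log2 scale with all hearts (adjusted p = 0.650) and -1.24 ± 0.21 without replicate 1 (adjusted p = 0.0299).

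Per3 (ENSMUSG00000028957, chr4:151003652-151044665, minus strand), the gene with D-boxes in the printed window, gave 32.7, 28.5 and 32.2 normalized CPM in EIIa-ctl, 25.3, 26.8 and 21.5 in EIIa-tg, 2.33, 23.6 and 35.6 in Myh6-ctl and 10.4, 11.3 and 11.4 in Myh6-tg. The EIIa-tg hearts lay below all EIIa-ctl hearts, at -0.35 ± 0.12 on the log2 scale (SE, adjusted p = 0.0813). The Myh6-tg hearts kept within a narrow range below 2 of the Myh6-ctl hearts and above replicate 1. Their log2 fold change was -0.89 ± 0.74 with that heart (adjusted p = 0.442) and -1.42 ± 0.23 without it (adjusted p = 0.0287).

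Cry1 (ENSMUSG00000020038, chr10:85131700-85185064, minus strand) encodes a repressor of the CLOCK and BMAL1 pair. Its levels were 14.1, 9.56 and 14.97 normalized CPM in EIIa-ctl, 13.7, 15.02 and 15.5 in EIIa-tg, 12.3, 17.9 and 21.2 in Myh6-ctl and 14.6, 14.2 and 13.0 in Myh6-tg. All 4 groups overlapped. Its log2 fold change was 0.19 ± 0.17 in EIIa-tg (SE, adjusted p = 0.469), with a 95% interval of -0.15 to 0.53, and -0.30 ± 0.23 in Myh6-tg (adjusted p = 0.395), with an interval of -0.74 to 0.14. In Myh6-tg without Myh6-ctl replicate 1 it was -0.49 ± 0.20 (adjusted p = 0.183).

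**Figure D2:**
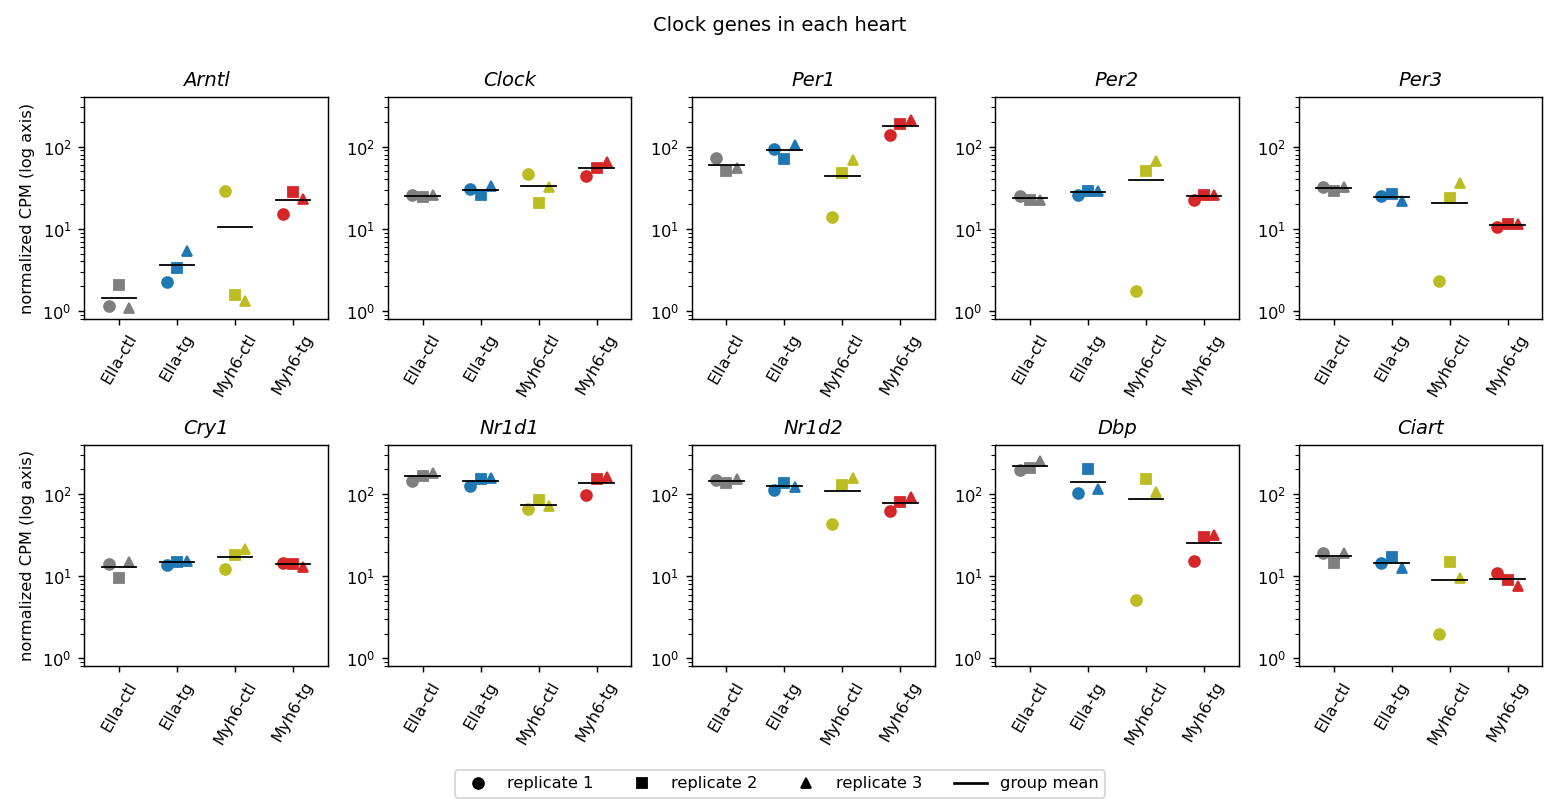
Normalized CPM (y axis, log scale, the same range in each panel) of the 10 clock genes in each heart, by group on the x axis, with circles, squares and triangles for replicates 1, 2 and 3 and a line at the group mean. Myh6-ctl replicate 1 (circle) lies apart from its group in 7 panels, and the Myh6-tg hearts lie above all others in Per1, at 138 to 209.

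The nuclear receptors NR1D1 and NR1D2 repress Arntl. Nr1d1 (ENSMUSG00000020889, chr11:98767932-98775333, minus strand) read 146, 168 and 180.4 normalized CPM in EIIa-ctl, 127, 155 and 155 in EIIa-tg, 65.5, 85.0 and 72.2 in Myh6-ctl and 96.6, 152 and 164 in Myh6-tg. The Myh6-ctl hearts, replicate 1 included, lay below all 9 others. Nr1d1 rose 1.85-fold in Myh6-tg over Myh6-ctl, a log2 fold change of 0.89 ± 0.24 (SE, adjusted p = 0.0393), with a similar size but no call without replicate 1 (0.81 ± 0.29, adjusted p = 0.143). That call was lost when any 1 of 5 of the 6 hearts was left out. In EIIa-tg the log2 fold change was -0.18 ± 0.12 (adjusted p = 0.320).

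Nr1d2 (ENSMUSG00000021775, chr14:18204054-18239127, minus strand) read 150.4, 136 and 151 normalized CPM in EIIa-ctl, 114, 138 and 122 in EIIa-tg, 43.5, 128 and 159 in Myh6-ctl and 63.1, 81.2 and 91.8 in Myh6-tg. The EIIa groups overlapped, and Myh6-ctl lay on both sides of Myh6-tg. Its log2 fold change was -0.23 ± 0.11 in EIIa-tg (SE, adjusted p = 0.167), -0.48 ± 0.43 in Myh6-tg (adjusted p = 0.467) and -0.86 in Myh6-tg without Myh6-ctl replicate 1 (adjusted p = 0.0837).

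Of the output genes, Dbp encodes a transcription factor that acts on D-boxes and is among the most strongly cycling transcripts of the body. Dbp (ENSMUSG00000059824, chr7:45705088-45710203) read 199, 209 and 256 normalized CPM in EIIa-ctl, 103, 201 and 116 in EIIa-tg, 5.20, 151 and 106 in Myh6-ctl and 15.5, 29.7 and 31.6 in Myh6-tg. EIIa-tg replicate 2 fell within the EIIa-ctl range and the other 2 EIIa-tg hearts below it, and all Myh6-tg hearts lay between Myh6-ctl replicate 1 and the other Myh6-ctl hearts. The log2 fold change was -0.66 ± 0.24 in EIIa-tg (SE, adjusted p = 0.0956) and -1.77 ± 0.92 in Myh6-tg (adjusted p = 0.219), and -2.33 ± 0.36 in Myh6-tg without replicate 1 (adjusted p = 0.0242).

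Ciart, which encodes a repressor of the CLOCK and BMAL1 pair and whose printed promoter holds the 3 E-boxes (ENSMUSG00000038550, chr3:95878503-95882251, minus strand), read 18.97, 14.6 and 19.4 normalized CPM in EIIa-ctl, 14.4, 17.0 and 12.5 in EIIa-tg, 1.99, 15.1 and 9.66 in Myh6-ctl and 11.04, 9.002 and 7.53 in Myh6-tg. Both pairs of groups overlapped. Neither model gave a call, at log2 fold changes of -0.27 ± 0.16 (SE, adjusted p = 0.265) and 0.05 ± 0.60 (adjusted p = 0.968), and the Myh6-tg value turned to -0.43 without Myh6-ctl replicate 1 (adjusted p = 0.412).

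On the FPKM scale, which is per length and lets genes be compared, Dbp was the highest clock gene in EIIa-ctl at a mean of 109.6 FPKM, followed by Nr1d1 at 53.6 and Nr1d2 at 27.6, and Arntl was the lowest at 0.43. Myh6-tg had another order, with Nr1d1 at 60.3 FPKM, Per1 at 49.8, Nr1d2 at 20.1, Dbp at 17.3 and Arntl at 9.35. By these means Arntl was in the last place in EIIa-ctl, EIIa-tg and Myh6-ctl and in the fifth in Myh6-tg, where Per3 was lowest at 2.19 FPKM. The place in Myh6-ctl rests on a mean of 3.12 FPKM that includes replicate 1, just below Clock at 3.19. Within Myh6-ctl replicate 1 only Nr1d1 of the clock genes lay above Arntl, whereas in replicates 2 and 3 Arntl was the lowest. Between neighbouring groups ordered by normalized CPM, the hearts did not overlap for Arntl between EIIa-ctl and EIIa-tg, Per1 between EIIa-tg and Myh6-tg, Per3 between EIIa-tg and EIIa-ctl, Nr1d1 between Myh6-ctl and Myh6-tg, and Ciart between Myh6-tg and EIIa-tg. All other neighbours overlapped. The share of all genes without overlap was not computed for this ordering. In the direct comparisons it was 41.0% in EIIa-tg against EIIa-ctl, 40.2% in Myh6-tg against Myh6-ctl and 17.4% between controls. The place of Myh6-ctl in this order uses a mean that includes its replicate 1.

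Counted over the set, 1 of 10 clock genes passed in EIIa-tg against EIIa-ctl, where 17.0% of the 14908 genes tested passed (8.65% higher and 8.30% lower). With an unadjusted p under 0.05 there were 4, Arntl, Per1, Per3 and Dbp, against 34.9% of all genes. The hearts of both groups did not overlap in 3, Arntl, Per2 and Per3, against 41.0% of all genes. A differentially expressed gene (DEG) was one whose adjusted p was below 0.01 and whose level changed at least 2-fold, and in this comparison neither a clock gene nor any other gene met both limits. The median log2 fold change was 0.00 over the clock genes and 0.02 over all genes. These counts lie near the shares of all genes.

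In Myh6-tg against Myh6-ctl, 2 of 10 passed, Per1 and Nr1d1, both higher, where 18.3% of 15298 genes passed (8.96% higher and 9.38% lower). Clock joined them at an unadjusted p under 0.05, against 34.1% of all genes. The hearts did not overlap in Per1 and Nr1d1, against 40.2% of all genes, and no clock gene was among the 608 DEGs (3.97%). When Myh6-ctl replicate 1 was left out, 5 passed, Arntl and Per1 higher and Per2, Per3 and Dbp lower, where 5.01% of 15931 genes passed. That heart was singled out by these same genes, so this count is a description and is not read against that share. The median log2 fold change was -0.13 with all hearts and -0.46 without that heart, against 0.03 over all genes in both. With Myh6-ctl replicate 2 left out instead there were 0 calls, where 11.02% of all genes passed. Without Myh6-ctl replicate 3 there was 1 call (10.32% of all genes), and without Myh6-tg replicate 1 there were 2 (26.7%). Without Myh6-tg replicate 2 or 3 there were 0 calls (6.23% and 6.17% of all genes).

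**Figure D3:**
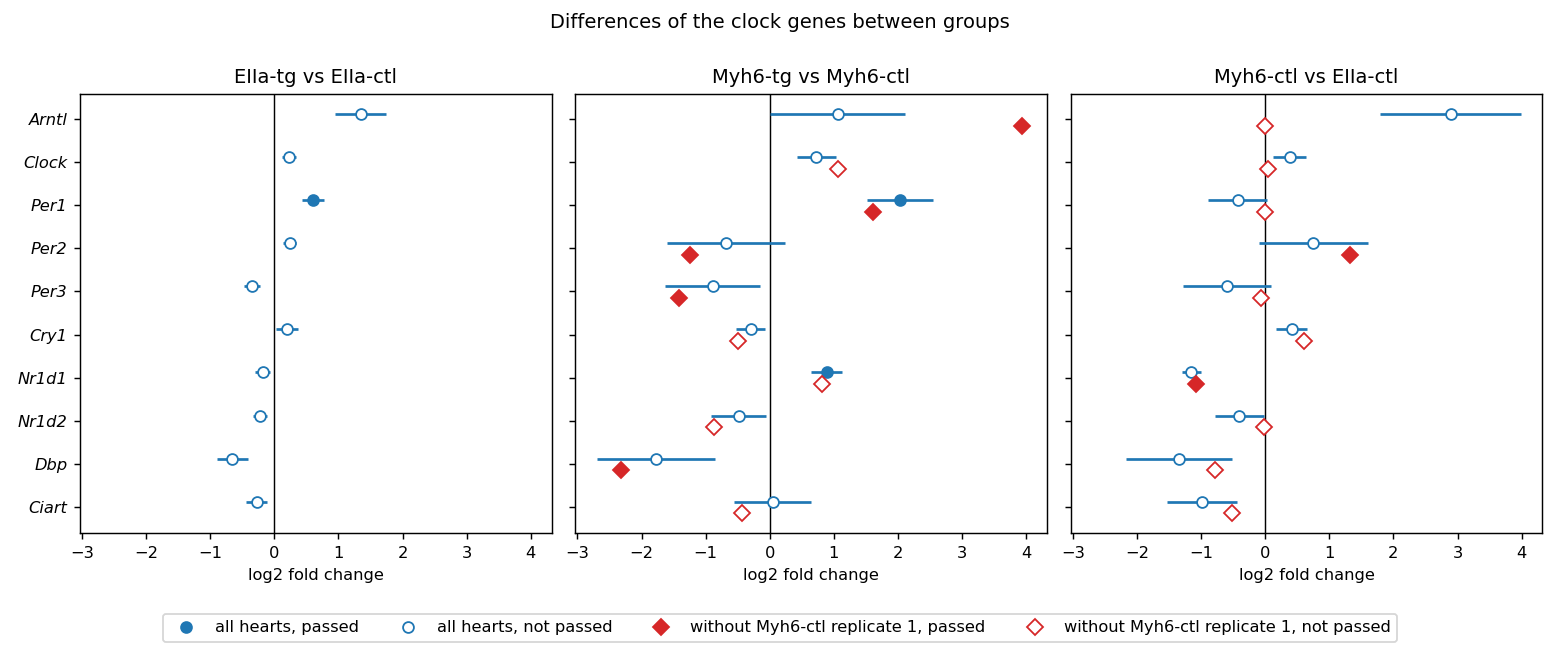
The log2 fold changes (x axis) of the 10 clock genes (y axis) in 3 comparisons, with all hearts (blue circles, bars of 1 SE) and without Myh6-ctl replicate 1 (red diamonds, no bars), filled where the edgeR adjusted p was under 0.05. Leaving out that heart moves Arntl in Myh6-tg from 1.06 to 3.94 and in the comparison of controls from 2.89 to 0.00.

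Control hearts were compared to see whether the 2 control groups read alike. Against EIIa-ctl, 0 of 10 clock genes passed in Myh6-ctl by edgeR, where 0.0334% of 14990 genes passed (5 genes, 0.0200% higher and 0.0133% lower), and 2 had an unadjusted p under 0.05, Arntl and Nr1d1, against 11.3% of all genes. DESeq2 called 1, Nr1d1. Hearts did not overlap in 2 genes, Nr1d1 and Dbp, against 17.4% of all genes. Nr1d1 was at a mean of 74.3 ± 9.90 normalized CPM (SD, n = 3) in Myh6-ctl and 165 ± 17.2 in EIIa-ctl, a log2 fold change of -1.15 ± 0.15 (SE, adjusted p = 0.0527). With Myh6-ctl replicate 1 left out, Nr1d1 (-1.07, adjusted p = 0.0410) and Per2 (1.32 ± 0.17, adjusted p = 0.0294) passed, where 0.639% of 15334 genes passed. That heart was singled out by clock genes, Per2 among them, so this count too is a description and is not read against that share. In that fit Arntl was at 0.00 ± 0.46, Per1 at -0.01 ± 0.22 and Nr1d2 at -0.03, so that the 2 remaining Myh6-ctl hearts were at the level of EIIa-ctl for these genes.

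The change in Myh6-tg minus the change in EIIa-tg was tested over all 12 hearts. No clock gene passed by edgeR, where 3.92% of 15929 genes did (1.65% higher and 2.27% lower), and 2, Per1 and Nr1d1, had an unadjusted p under 0.05 against 19.4% of all genes. DESeq2 called Nr1d1. Its difference was 1.07 ± 0.27 (SE, log2, adjusted p = 0.0516), or 0.98 without Myh6-ctl replicate 1 (adjusted p = 0.106). Per1 differed by 1.43 ± 0.59 (adjusted p = 0.209), or by 1.00 without that heart (adjusted p = 0.148). The larger rise of Per1 in Myh6-tg was thus not shown to exceed that in EIIa-tg. Leaving out Myh6-ctl replicate 1, Arntl (2.59 ± 0.56, adjusted p = 0.0342), Per2 (-1.48 ± 0.21, adjusted p = 0.00703) and Per3 (-1.08 ± 0.25, adjusted p = 0.0442) passed, where 2.97% of 16404 genes passed. That heart was singled out by these same genes, so the calls are a description and are not read against that share. The Arntl value was -0.29 ± 1.28 with all hearts and so reversed. In the fit without that heart Per2 also met both limits of a DEG, and the share of all genes that did so in that fit was not computed. The share over all 12 hearts, 0.622%, belongs to another fit.

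A ratio of 2 genes within a heart does not depend on its depth or scaling, and Arntl and Dbp lie at opposite ends of the loop. The log2 of Arntl counts over Dbp counts was -7.43, -6.64 and -7.86 in EIIa-ctl, -5.52, -5.92 and -4.42 in EIIa-tg, 2.48, -6.57 and -6.33 in Myh6-ctl and -0.01, -0.07 and -0.47 in Myh6-tg. Myh6-ctl replicate 1 had the highest ratio of all hearts, its 2 group mates lay just above the EIIa-ctl range, and the 3 Myh6-tg hearts lay near equal counts. Group means were -7.31 ± 0.62 (SD, n = 3), -5.29 ± 0.78, -3.47 ± 5.15 and -0.18 ± 0.25 in the same order.

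EIIa-tg exceeded EIIa-ctl by 2.02 on that log2 scale with no overlap (two-sided exact permutation p = 0.1, the smallest that 3 against 3 can give). Myh6-tg exceeded Myh6-ctl by 3.29 (exact permutation p = 0.4), and Myh6-ctl exceeded EIIa-ctl by 3.84 (exact permutation p = 0.1). Without Myh6-ctl replicate 1 these last values were 6.26 (exact permutation p = 0.1) and 0.86 (exact permutation p = 0.2). The pairs of Per1 and Per2 read differently, as the log2 of Per1 over Per2 counts was 2.97 in Myh6-ctl replicate 1, -0.07 and 0.06 in its group mates, 1.15 to 1.53 in EIIa-ctl, 1.30 to 1.88 in EIIa-tg and 2.62 to 3.00 in Myh6-tg.

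**Figure D4:**
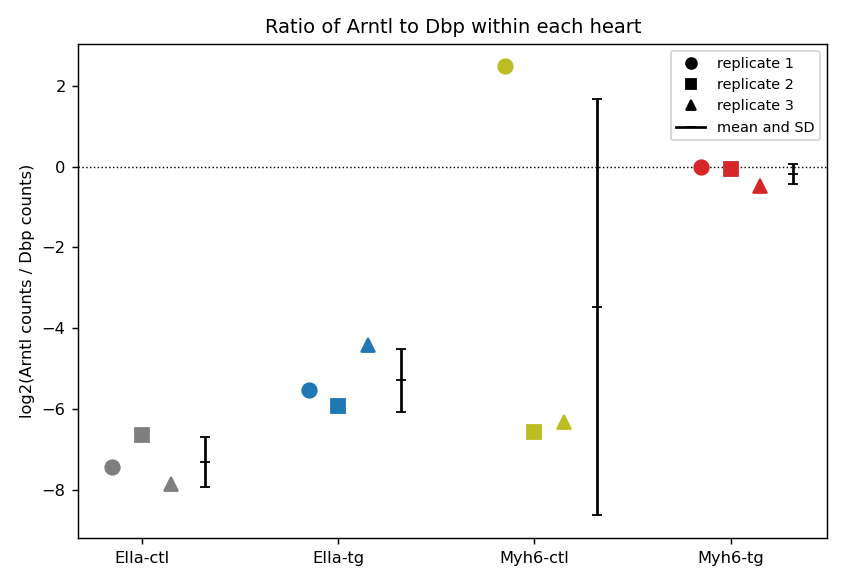
The log2 ratio of Arntl to Dbp counts (y axis) in each heart by group (x axis), with the mean and SD of 3 hearts beside the points and a dotted line at equal counts. EIIa-ctl hearts lie lowest, at -7.86 to -6.64, Myh6-tg hearts lie near 0, and Myh6-ctl replicate 1 lies at 2.48 while the other Myh6-ctl hearts lie at -6.57 and -6.33.

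With the group means removed, Arntl was correlated with each other clock gene over the 12 hearts, 9 relations in all. The most negative were Per3 (Pearson r = -0.95, permutation within groups p = 0.0278, adjusted p = 0.146, Spearman rho = -0.77, permutation p = 0.0594, adjusted p = 0.267) and Ciart (r = -0.93, permutation p = 0.0324, adjusted p = 0.146, rho = -0.81, permutation p = 0.0293, adjusted p = 0.264). Clock had the 1 positive r, 0.73 (permutation p = 0.261, adjusted p = 0.304). None of the 9 passed after adjustment. With the replicate number removed as well as the group, 8 of the 9 passed, all but Nr1d1, at adjusted p of 0.00463 to 0.0373 by an approximate permutation of residuals. That fit gave each replicate number the same effect in all 4 groups, although the numbers did not pair the EIIa hearts or the controls. These 8 calls are therefore not relied on. Without the 2 hearts farthest from the median of Arntl, Myh6-ctl replicate 1 and Myh6-tg replicate 2, r was -0.48 for Per3 (permutation p = 0.125) and -0.46 for Ciart (permutation p = 0.208). These hearts are extremes of Arntl itself, and leaving them out narrows its range.

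Over the 10377 genes at 5 CPM or more, the genes whose within-group deviations were most like those of Arntl were Col4a2 (r = 0.96), Leo1 (0.95), Il2rg (0.95) and S1pr3 (0.94), and the most opposed were Tef (-0.97), Per3 (-0.95), Lonrf1 (-0.95) and Ciart (-0.93). For Dbp they were Asb1 (0.98), Cys1 (0.97), Nr1d2 (0.96) and Per2 (0.95), and the most opposed Steap4 (-0.98), Ets2 (-0.96), Cxcl14 (-0.95) and Fam53b (-0.95). Among the most opposed to Arntl were Per3 and Ciart themselves and Tef, a relative of Dbp. The points are 12 hearts that share their library and scaling, and without Myh6-ctl replicate 1 the r of Dbp with Per2 was 0.19 and of Arntl with Per3 was -0.41. Arntl then kept -0.71 with Tef, and genes outside the clock lists kept more, Lonrf1 (-0.86), Col4a2 (0.85) and Il2rg (0.79), or less, Leo1 (0.59) and S1pr3 (0.51). Dbp kept -0.85 with Fam53b and 0.78 with Cys1, but -0.48 with Ets2. The genes named here were picked as extremes in these same hearts, so their remaining r cannot show what is particular to clock genes, and this was not tested.

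Relatives of these genes were read beside them, 18 in a list of other clock genes. In Myh6-ctl replicate 1, Npas2, a paralog of Clock that also pairs with BMAL1, stood at 11.2 normalized CPM against 1.19 and 1.23 in its group mates. Tef, a D-box factor like DBP, stood at 48.1 against 171 and 189, and Hlf, of the same family, at 16.2 against 46.7 and 56.0. Npas2, Tef, Hlf and the scarcely expressed Fbxl21 were the other clock genes past the 2-fold mark in that heart.

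In EIIa-tg, 0 of the 18 passed by edgeR (17.0% of all genes), and 6 had an unadjusted p under 0.05, against 34.9% of all genes. Several passed in Myh6-tg (18.3% of all genes). Cry2, a repressor like Cry1, rose by a log2 fold change of 1.00 ± 0.25 (SE, adjusted p = 0.0327) and Bhlhe40, an E-box repressor, by 0.65 ± 0.17 (adjusted p = 0.0368). The kinase genes Csnk1d (0.76 ± 0.18, adjusted p = 0.0259) and Csnk1e (0.73 ± 0.18, adjusted p = 0.0304), whose products phosphorylate PER proteins, rose too. Timeless, known mainly for its role in DNA replication, fell by 1.68 on the log2 scale (adjusted p = 0.00642). Without Myh6-ctl replicate 1 only Timeless of the 18 passed, where 5.01% of all genes passed. The median log2 fold change of the 18 was then 0.21 in place of 0.37, against 0.03 over all genes in both.

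**Figure D5:**
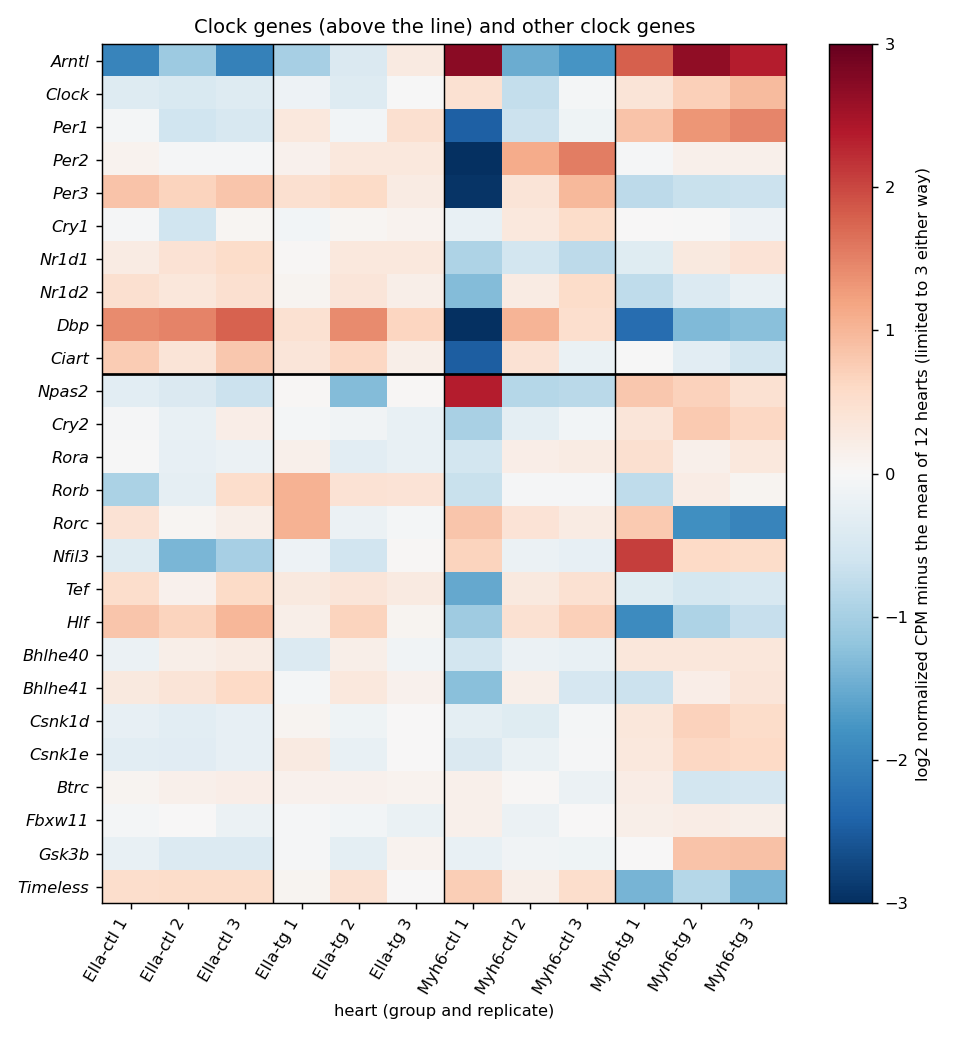
Each row is a gene, the 10 clock genes above the black line and 16 of the other clock genes below it (Fbxl21, at 0 in 1 heart, and 1 further gene of the list are left out), and each column is a heart. Colour is the log2 normalized CPM minus the mean of 12 hearts, limited to 3 either way, and Myh6-ctl replicate 1 shows the highest Arntl and Npas2 and the lowest Per2, Per3 and Dbp of all hearts.

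Genes known as outputs of the clock were taken as a list of 13. In EIIa-tg 3 rose, Wee1 (0.75 ± 0.12 log2, SE, adjusted p = 0.0166), Tspan4 and Klf10, and 3 fell, Kcnip2 (-1.20 ± 0.29, adjusted p = 0.0317), Dgat2 and Slc2a4, where 8.65% of all genes rose and 8.30% fell. In Myh6-tg 0 rose and 3 fell, Nampt (-1.37 ± 0.22, adjusted p = 0.00808), Kcnip2 (-3.73 ± 0.89, adjusted p = 0.0267) and Dgat2 (-2.86 ± 0.21, adjusted p = 0.00102), where 8.96% of all genes rose and 9.38% fell. Nampt and Dgat2 passed without Myh6-ctl replicate 1, where 5.01% of all genes passed, and Kcnip2 did not (-3.58 ± 0.99, adjusted p = 0.0829). Wee1, which encodes a kinase of the cell cycle, read 10.04 normalized CPM in Myh6-ctl replicate 1 and 43.9 and 47.7 in its group mates. Kcnip2 encodes a subunit of a cardiac potassium channel, Dgat2 an enzyme of triglyceride synthesis and Nampt an enzyme of NAD synthesis.

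Per1 is also induced by glucocorticoids and by stimuli that induce immediate early genes, so both lists were read beside it. Of 7 glucocorticoid-responsive genes tested, 4 rose in EIIa-tg, Fkbp5 (1.87 ± 0.26 log2, SE, adjusted p = 0.0147), Cdkn1a, Mt1 and Mt2, and 4 in Myh6-tg, Fkbp5 (2.15 ± 0.41, adjusted p = 0.0143), Sgk1, Cdkn1a and Mt2, where 8.65% and 8.96% of all genes rose in the 2 models. Fkbp5, which encodes a chaperone of the glucocorticoid receptor, read 10.3, 13.1 and 8.34 normalized CPM in EIIa-ctl, 48.5, 24.6 and 43.7 in EIIa-tg, 16.7, 36.4 and 59.1 in Myh6-ctl and 178, 152 and 167 in Myh6-tg. Neither pair of groups overlapped in Fkbp5. Of 8 immediate early genes, Fos, Junb and Atf3 rose in both models and Ier2 in Myh6-tg as well, against the same shares of all genes. Without Myh6-ctl replicate 1, Fkbp5 and Mt2 passed in Myh6-tg and none of the 8 immediate early genes did by edgeR, where 5.01% of all genes passed. Of these 8, 4 had an unadjusted p under 0.05, and the share of all genes at that limit was not computed in this fit. In that setting Fkbp5 and Mt2 also passed as higher in Myh6-ctl than in EIIa-ctl, where 0.639% of all genes passed. Whether these shifts bear on Per1 was not tested.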

How the data were processed

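RNA of 12 hearts was sequenced as 150-bp paired-end reads and mapped by the authors to GRCm38 with Hisat2. The submitters' processing notes list HISAT2 2.0.4, StringTie 2.2.1 and DESeq2, and the counting program, its use of strand and the annotation release are not given in the sources used here. The authors deposited counts, whole reads per locus without normalization, and FPKM, which scale fragments by transcript length and library total. NewGene loci of the authors (3135 of 25171) took 2.09 to 4.35% of counts. Genotype labels differ among the EIIa-tg hearts, which were grouped by title. How replicate numbers relate to litters or days is not stated.

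Counts were tested in R 4.3.3 with the quasi-likelihood test of edgeR 4.0.16 (filterByExpr, TMM, Benjamini-Hochberg over all genes tested), and every adjusted p printed for a gene comes from it unless another tool is named. A gene passed at an adjusted p under 0.05. On simulated counts with known changes the test was checked before use. Normalized CPM used TMM factors over 12 hearts, and 3 counts, taken as the floor, equal 0.0589 to 0.0782 CPM and cover counting error only. The Arntl to Dbp ratio used 0.5 added counts and exact permutation tests over hearts. Correlations used all 1296 arrangements within groups. DESeq2 1.42.0, limma 3.58.1 on log2(FPKM + 1) and other settings were alternatives. Positions came from GENCODE M21.

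Pairing was checked by correlating the deviations of same-numbered hearts from their group means. In the Myh6 groups these were 0.28, 0.18 and 0.17 for replicates 1, 2 and 3, and -0.24 to 0.05 for unlike numbers. Such correlations depend on each other and were not tested, and unlike numbers reached 0.14 in the EIIa groups. Replicate 1 of each group also shares the Y-linked counts, so a pairing was not established. The main tests used no pairing. As an alternative, a replicate block in the edgeR fit kept the Myh6-tg calls of Per1 (2.28, adjusted p = 0.00848) and Nr1d1 (0.86, adjusted p = 0.0233).

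The clock genes and all lists were chosen with earlier results of these data known. Named are the clock genes, members of the lists that passed, and the 4 genes most and least like Arntl and Dbp. One gene of the list of other clock genes is not reported here.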

Additional observations from a re-analysis of the deposited data

Results flagged for a closer look

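None of the 10 clock genes differed between the models by the edgeR test of the difference with all hearts. Among the genes listed beside them, 3 had a change in Myh6-tg below that in EIIa-tg. Timeless, known mainly for DNA replication, differed by -1.34 ± 0.28 (SE, log2, adjusted p = 0.0212), having read 15.9 to 23.7 normalized CPM in Myh6-ctl and 5.40 to 7.90 in Myh6-tg. Nampt differed by -1.67 ± 0.29 (adjusted p = 0.0112) and Dgat2 by -1.72 ± 0.33 (adjusted p = 0.0143). Of the cell markers, the macrophage gene Adgre1 differed by -1.64 ± 0.37 (adjusted p = 0.0289). Esr1 differed by -10.23 ± 0.71 (adjusted p = 9.89e-05), with 0.41 to 1.23 normalized CPM in the EIIa hearts. Groups of 3 hearts were not tested for single outlying samples.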

How the results depend on the processing

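The 1 clock gene called in EIIa-tg became 3 with DESeq2 and with limma on log2(FPKM + 0.1), 2 without a filter, at a CPM of at least 1 or with limma on log2(FPKM + 1), and 0 with RLE factors, the replicate block, a Y-linked term, DEG thresholds, unfiltered limma or all 12 hearts in one fit, and 0 to 4 with 1 heart left out (4 without EIIa-tg replicate 2). The share of all genes called moved as well. It was 17.0% in the main fit, 18.2% with DESeq2, 23.9% (+ 1) and 23.6% (+ 0.1) with filtered limma and 17.1% with RLE factors. With the Y-linked term it was 11.3%, in the 12-heart fit 1.43%, with the block 0.00671% and with unfiltered limma 0.00513%. Without EIIa-tg replicate 2 it was 26.6%. The 2 called in Myh6-tg became 3, with Clock added, with filtered limma at either added value or all 12 hearts in one fit, 0 at the DEG thresholds and 0 to 5 with 1 heart left out. There the share of all genes was 18.3% in the main fit, 32.7% (+ 1) and 32.4% (+ 0.1) with filtered limma and 31.7% in the 12-heart fit. It was 3.97% at the DEG thresholds and 5.01 to 26.7% with 1 heart left out. The 0 between controls became 1, Nr1d1, with DESeq2, no filter, a CPM of at least 1, the block or the Y-linked term, and 0 to 2 with 1 heart left out. In these 5 settings 2.23%, 0.338%, 0.0857%, 0.180% and 0.0867% of all genes were called, and 0.0195 to 0.639% with 1 heart left out. The 0 for the difference between models became 1, Nr1d1, with DESeq2, a CPM of at least 1, the block, the Y-linked term or limma on log2(FPKM + 1), and 0 to 3 with 1 heart left out. In that order 6.71%, 4.93%, 3.17%, 4.64% and 5.76% of all genes were called, and 1.78 to 10.6% with 1 heart left out. The 0 correlations called became 8 under the replicate block, where residuals were permuted within groups as an approximation. That block assumed the same replicate effect in all groups, and these 8 are not relied on. The cause of these moves was not tested. Numbers did not pair the EIIa hearts (0.06, -0.07 and -0.05) or the controls (0.12, 0.06 and -0.03).

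Of 903 single values, 797 kept direction and call, 18 lost and 42 gained a call, and 46 reversed. On the FPKM scale the median of all genes moved to 0.34 (+ 1) and 0.43 (+ 0.1) in Myh6-tg, and values there are relative to it. Nr1d1 in EIIa-tg was 0.0117 (+ 1, filtered or not) and 0.0119 (+ 0.1) with limma. In Myh6-tg, Per2 was 0.10 with the block, 0.0893 with the Y-linked term, and 0.25 (+ 1, filtered or not) and 0.71 (+ 0.1) with limma, Cry1 was 0.10 and 0.13, Nr1d2 0.0792 and 0.0953, and Per3 0.14 (+ 0.1), while Ciart ran from -0.43 to 0.66 with 1 heart left out. Per2 between controls was -0.24 (+ 0.1). For the difference between models, Arntl was 1.37 with the block, 0.16 with the Y-linked term and 1.27 and 1.44 with limma, Per3 was 0.0133 with the block and 0.0245 and 0.29 with limma, Nr1d2 0.11 and 0.13, Dbp 0.0114 and 0.0932, and Per2 0.29 (+ 0.1). With 1 heart left out these ran from -0.83 to 2.59 (Arntl), -1.08 to 0.11 (Per3), -0.64 to 0.0884 (Nr1d2) and -0.16 to 0.92 (Ciart). Arntl with Nr1d1 was r = 0.29 under the block, and with 1 heart left out r ran from -0.32 to 0.61 with Nr1d1, -0.90 to 0.10 with Per1, -0.95 to 0.23 with Per2, -0.94 to 0.18 with Nr1d2 and -0.92 to 0.34 with Dbp. The ratio of Arntl to Dbp kept its direction in every setting run, from 1.59 to 2.36 in EIIa-tg, 1.74 to 6.26 in Myh6-tg and 0.86 to 5.38 between controls with 1 heart left out. With 3 hearts a group and 1 time of collection per heart, the hour of day and the group cannot be told apart. Refits of the other lists without Myh6-ctl replicate 1 and of all comparisons without NewGene loci were added after seeing the data.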
